A study of Mus musculus with 8 samples.

Results

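The genes described here encode the subunits of the mitochondrial respiratory chain that are carried by nuclear chromosomes: the Ndufa, Ndufb, Ndufc, Ndufs and Ndufv genes of complex I, Sdha to Sdhd of complex II, the Uqcr genes of complex III, the Cox4 to Cox8 genes of complex IV and the Atp5 genes of complex V. They were found by symbol among the 18193 mouse genes with a probe set that the array annotation assigns to a single symbol. The rule found 80 genes with 163 probe sets, and the brightest on average stood for each of the 48 genes with several. 79 of the 80 passed the filter on dim signals. Ndufb4, a membrane arm subunit of complex I, did not. Subunit genes outside this rule were not analysed here. Ndufa4 has a complex I symbol but is now placed in complex IV and was counted there.

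The arrays were hybridised with total RNA from mouse embryonic stem cells, pluripotent cells grown in this study with the cytokine LIF on a layer of feeder cells. There were 4 groups of 2 arrays. The wild-type group is an embryonic stem cell line that the labels do not name further. The exon 2 mutant group (Δexon2/+) is a gene-targeted derivative of the R1 line in which exon 2 of Gtf2i is deleted on an allele. The Hprt knockout group lacks Hprt by its label (HPRT -/-). The trap group is a gene trap line derived from AB2.2 cells with the genotype HPRT -/-:GTF2I +/-. By these labels Hprt loss is shared by the trap group and its control. Gtf2i encodes the transcription factor TFII-I. Hprt encodes a purine salvage enzyme used for drug selection in stem cells. The labels call the arrays of a group biological replicates without naming separate cultures, and each genotype is 1 line, so that p-values measure only the spread between arrays and a mutation cannot be told apart from its line. The exon 2 mutant arrays also have sample numbers apart from the unbroken run of the other groups. Whether they were processed apart was not tested, and the exon 2 mutation cannot be told apart from that set of arrays.

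The respiratory chain is an electron transport pathway in the inner mitochondrial membrane. Complex I takes electrons from NADH and complex II takes them from succinate, both pass them to ubiquinone, complex III moves them on to cytochrome c, and complex IV reduces oxygen. Complexes I, III and IV pump protons, and complex V, the ATP synthase, uses the gradient to make ATP. Most subunits are made in every cell, but several of complex IV exist as isoforms used mainly in muscle, lung or testis. Pluripotent stem cells rely strongly on glycolysis while keeping a working respiratory chain.

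All 10 pluripotency markers were above the filter level on each array. Of these, 8 were higher and 1 lower in the exon 2 mutant against wild-type, beside 32.5% and 23.1% of all tested genes. The Hprt knockout against wild-type had 7 higher and 2 lower, beside 46.4% and 25.1%. The trap had 7 and 0 against wild-type, beside 26.5% and 14.6%, and 4 and 4 against the Hprt knockout, beside 26.6% and 41.8%. Arrays of a group correlated at 0.997 to 0.998 over tested genes, and arrays of different groups at 0.866 or above. The summed intensity of 27 feeder fibroblast markers was 233458 and 233992 on the wild-type arrays, 163502 and 166303 on the exon 2 mutant arrays, and 176124 and 177436 on the trap arrays. It was 20887 and 21018 on the Hprt knockout arrays, where 26 of the 27 were still above the filter level. All 27 fell in the Hprt knockout against wild-type and all 27 rose in the trap against the Hprt knockout. Of 10 primitive endoderm markers, 0 were higher and 8 lower in the exon 2 mutant against wild-type, beside 32.5% and 23.1% of all tested genes. The Hprt knockout against wild-type had 5 higher and 3 lower, beside 46.4% and 25.1%. The trap had 3 higher and 6 lower against wild-type, beside 26.5% and 14.6%. Against the Hprt knockout it had 4 higher and 5 lower, beside 26.6% and 41.8%. Pdgfra, at -1.90 in the Hprt knockout against wild-type, is on both the feeder and the endoderm list, so that these are not independent. The part of feeder, endoderm or stem cell RNA in the differences below was not tested. Fewer cells of a type and less RNA per cell cannot be told apart in bulk RNA. Hprt fell by 2.05 on the log2 scale in the Hprt knockout against wild-type, and Gtf2i differed by -0.82 between trap and Hprt knockout and by 0.36 between exon 2 mutant and wild-type (limma, adjusted p = 9.9e-06 and 0.0010). Hprt was also lower in the trap than in wild-type, by -1.34 (adjusted p = 9.1e-06), while Gtf2i differed by -0.03 between trap and wild-type (adjusted p = 0.64). Between trap and Hprt knockout, Hprt differed by 0.71 (adjusted p = 1.4e-05). Between Hprt knockout and wild-type, Gtf2i differed by 0.78 (adjusted p = 9.6e-06). Probe sets of this array type lie toward the 3′ end of transcripts and exon 2 toward the 5′ end, so that the Gtf2i reading does not check that deletion.

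Read on the brightest probe set of each, the subunit genes were bright and varied little. Their mean level over the 8 arrays ran from log2 5.48 to 14.1 with a median of 12.1, and 70 of 79 lay above 10. The range of the 4 group means was 0.32 at the median subunit gene, against 0.59 over all 13819 tested genes. On the brightest probe set of each gene, Cox7a1, Cox6b2 and Cox7b2 spanned more than 1 log2 unit, while 24.7% of all tested genes did. Among the other probe sets, 2 dimmer ones of Uqcr10 also did, and are described with complex III. The standard deviation between the arrays of a group was 0.041 at the median subunit gene, against 0.074 over all tested genes. The subunit genes were not compared with other genes of like brightness. The group order leaned one way: the Hprt knockout had the highest mean of the 4 groups for 55 of 79 subunit genes (69.6%, against 45.9% of all tested genes), and wild-type had the lowest for 49 (62.0%, against 34.5%). The median log2 level over the 79 genes was 11.99 and 11.95 on the wild-type arrays, 12.07 and 12.07 on the exon 2 mutant arrays, 12.21 and 12.19 on the Hprt knockout arrays, and 12.12 and 12.08 on the trap arrays. The wild-type arrays were thus the lowest and the Hprt knockout arrays the highest on this measure.

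Each comparison below counts the subunit genes past an adjusted p of 0.05 in a limma fit over all tested genes, and sets that count beside the share of all tested genes called the same way. Exon 2 mutant and wild-type differed at 27 of 79 subunit genes, 22 up and 5 down in the mutant, against 55.5% of all tested genes called, 32.5% higher and 23.1% lower. The shares of subunit genes were 27.8% higher and 6.33% lower. In the trap against the Hprt knockout, 6 were higher and 38 lower (7.59% and 48.1%), against 68.4% of all genes called, 26.6% higher and 41.8% lower. The Hprt knockout against wild-type gave 57 higher and 3 lower (72.2% and 3.80%), against 71.5% of all genes called, 46.4% higher and 25.1% lower. The trap against wild-type gave 30 higher and 3 lower (38.0% and 3.80%), against 41.1% of all genes called, 26.5% higher and 14.6% lower. The comparisons share control arrays and are not independent of each other.

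These counts moved with the scaling of the arrays. Cyclic loess, which aligns the arrays across their intensity range, moved the median of all tested genes by -0.16 in the Hprt knockout against wild-type and by 0.14 in the trap against the Hprt knockout. Under it the counts became 9 up and 12 down in the exon 2 mutant (11.4% and 15.2%, against 26.6% and 29.1% of all genes), and 15 and 15 in the trap against the Hprt knockout (19.0% each, against 33.9% and 30.7%). They became 27 and 5 in the Hprt knockout against wild-type, where the 34.2% higher and 6.33% lower among subunit genes stood beside 34.1% and 34.2% of all genes. In the trap against wild-type they became 21 and 3 (26.6% and 3.80%, against 22% and 18.6%). Relative to the median of all tested genes, the median subunit gene differed by 0.05 in the exon 2 mutant, 0.013 in the trap against the Hprt knockout, 0.10 in the Hprt knockout against wild-type and 0.077 in the trap against wild-type. The median of the chain therefore lay within 0.10 log2 units of that of all tested genes, or within 0.15 without the filter on dim signals, and the lower calls in the trap against the Hprt knockout stood beside a median difference of -0.13 over all tested genes.

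**Figure D1:**
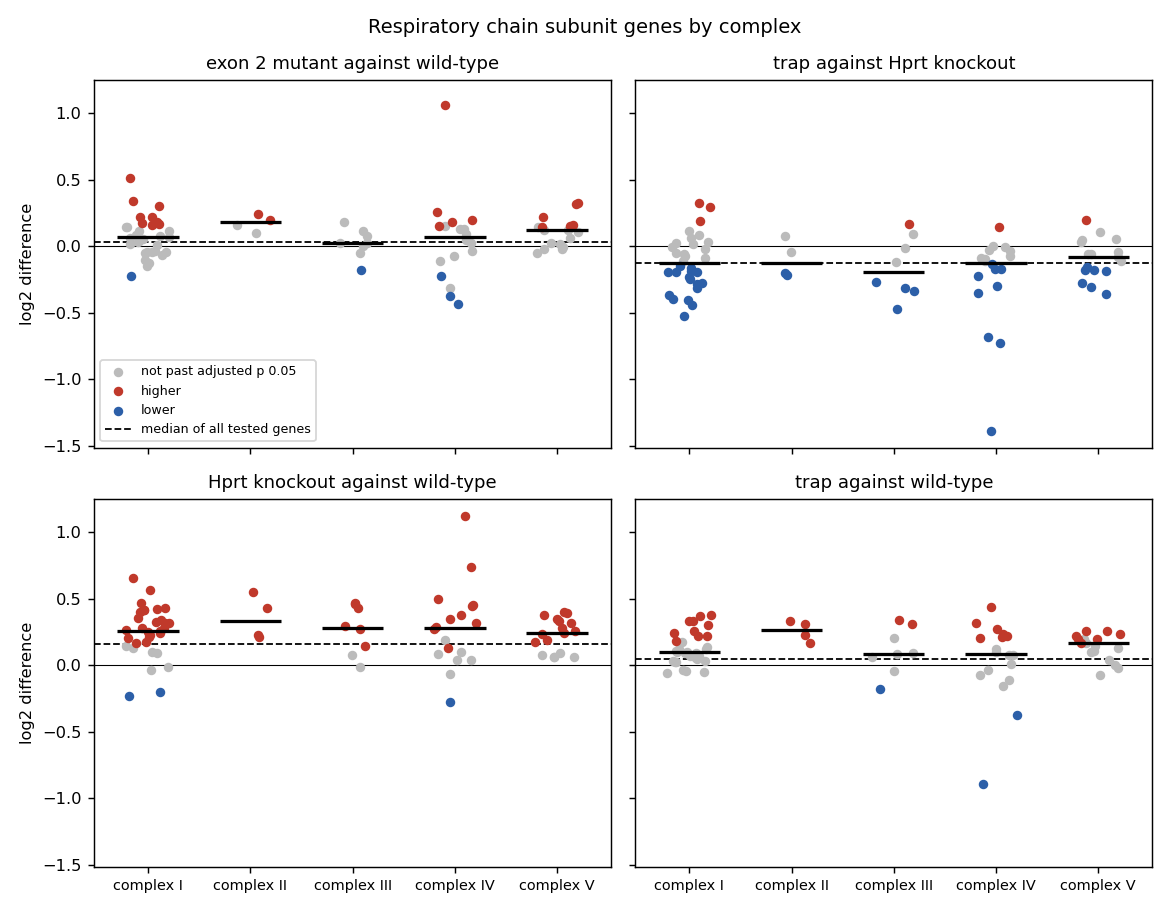
Each point is a subunit gene, placed by complex, with its log2 difference in the comparison named above the panel. Red and blue mark calls at adjusted p 0.05, bars are complex medians, and the dashed line is the median of all tested genes. Relative to that line the complex medians run from -0.067 (complex III, trap against Hprt knockout) to 0.22 (complex II, trap against wild-type). The widest points, all read on the brightest probe set, are complex IV genes.

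On the brightest probe set of each gene, the widest differences lay in the tissue-restricted isoforms of complex IV. Cox7a1, the isoform of subunit 7a found mainly in heart and skeletal muscle, read log2 7.42 and 7.45 on the wild-type arrays, 8.57 and 8.43 in the exon 2 mutant, 8.18 and 8.17 in the Hprt knockout, and 7.42 and 7.48 in the trap. The exon 2 mutant and Hprt knockout arrays all lay above the wild-type and trap arrays. Cox7a1 was higher by 1.06 ± 0.061 (SE, n = 2 arrays a group) in the exon 2 mutant than in wild-type, a 2.09-fold difference, with a limma adjusted p of 2.6e-05. It fell by 0.73 in the trap against the Hprt knockout (adjusted p = 4.4e-05) and the Hprt knockout lay 0.74 above wild-type (adjusted p = 3.2e-05). The trap and wild-type differed by 0.01 with an SE of 0.061 and did not pass the test (adjusted p = 0.90). No other subunit gene reached 1.5-fold in the exon 2 mutant on its brightest probe set, although dimmer probe sets of Uqcr10 did. Of 9 muscle markers on the array 6 passed the filter, and the summed intensity of the 9 was 484 and 498 in the exon 2 mutant, 533 and 484 in wild-type, 762 and 693 in the Hprt knockout and 451 and 462 in the trap. The median log2 level of the 9 was 5.63 and 5.44 in the exon 2 mutant against 5.41 and 5.36 in wild-type, and there Tnni3 was called higher (0.62, adjusted p = 0.0039) and Actc1 lower (-0.62, adjusted p = 0.0038). In the Hprt knockout against wild-type Myh6 (2.02) and Des (0.94) were called higher and Actc1 lower (-0.45). In the trap against the Hprt knockout Myh6 (-1.87) and Des (-1.17) were called lower and 0 markers higher. The part of muscle-like cells in the Cox7a1 differences was not tested.

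Cox6b2, the testis isoform of subunit 6b, read 9.92 and 9.95 in wild-type, 10.06 and 10.11 in the exon 2 mutant, 11.07 and 11.05 in the Hprt knockout, and 10.41 and 10.35 in the trap. The 4 groups did not overlap, with wild-type lowest and the Hprt knockout highest. The Hprt knockout lay 1.12 ± 0.052 above wild-type, 2.18-fold, with a limma adjusted p of 1.6e-06, and the trap lay 0.68 below the Hprt knockout (adjusted p = 2.3e-05) and 0.44 above wild-type (adjusted p = 0.00068). The exon 2 mutant's 0.15 (adjusted p = 0.040) was lost under cyclic loess, at 0.042, and with any single array left out. Its broadly expressed counterpart Cox6b1 read 13.19 and 13.14 in wild-type and 13.28 and 13.32 in the Hprt knockout, a difference of 0.13 (adjusted p = 0.043).

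Cox7b2, the testis isoform of subunit 7b, had the widest range on the brightest probe sets. It read 8.61 and 8.68 in wild-type, 8.25 and 8.18 in the exon 2 mutant, 9.14 and 9.15 in the Hprt knockout, and 7.76 and 7.75 in the trap. The groups again did not overlap, and here the trap was lowest. The trap lay 1.39 ± 0.053 below the Hprt knockout, a ratio of 0.382, with a limma adjusted p of 8.5e-07, and 0.89 below wild-type (adjusted p = 5.0e-05). It was also lower by 0.43 in the exon 2 mutant than in wild-type (adjusted p = 0.00052), so that both Gtf2i mutants lay below their controls. The Hprt knockout lay 0.50 above wild-type (adjusted p = 0.00012), or 0.26 under cyclic loess.

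The other restricted isoforms were dimmer. Cox6a2, of heart and skeletal muscle, read 6.78 and 6.71 in wild-type and between 6.25 and 6.54 on the other arrays, all below wild-type. It was lower by 0.37 in the exon 2 mutant (adjusted p = 0.013), by 0.27 in the Hprt knockout (adjusted p = 0.032) and by 0.37 in the trap (adjusted p = 0.017), calls that some single-array omissions ended. Cox8b read 5.60 and 5.59 in wild-type and 5.33 and 5.41 in the exon 2 mutant, close to the filter level of 5.35, and was called lower there (-0.22, adjusted p = 0.028). Cox8c, a testis isoform, read 8.17 and 8.25 in the Hprt knockout and 7.96 and 7.86 in the trap, a called difference of -0.30 (adjusted p = 0.016). Cox4i2, the lung isoform of subunit 4, read between 5.50 and 5.80 on all arrays and passed the test in none of the 4 comparisons.

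**Figure D2:**
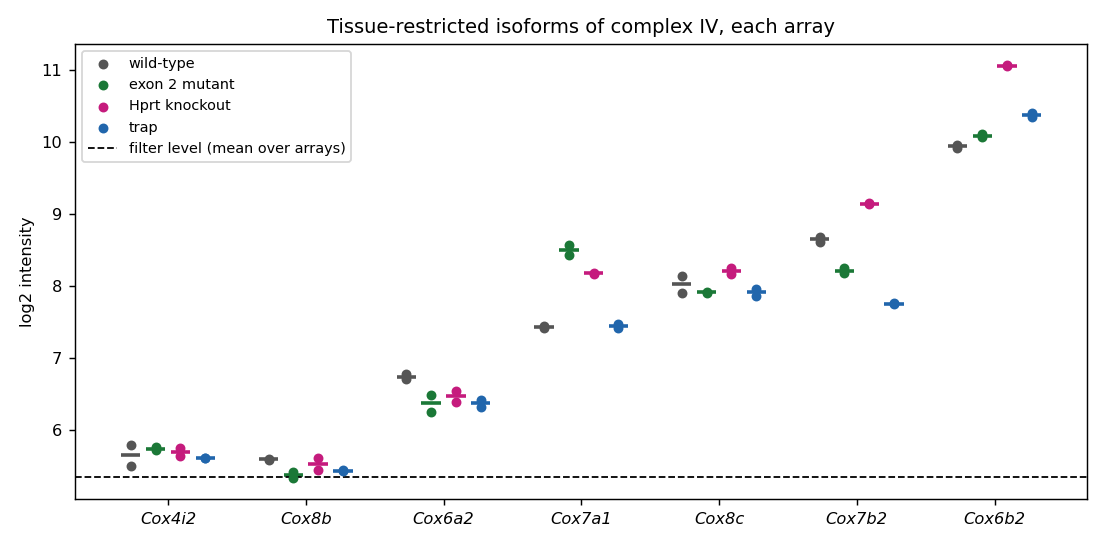
Log2 intensity of the 7 tissue-restricted complex IV isoforms on each array, with group means as bars and the filter level dashed. Cox7a1, Cox7b2 and Cox6b2 separate the groups, with the trap lowest for Cox7b2 and the Hprt knockout highest for Cox6b2.

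The promoter windows of those 3 isoforms are printed beside those of 3 broadly expressed subunit genes that were picked for a match to the core of the NRF1 motif, NRF1 being a factor known for driving respiratory genes. The comparison genes were chosen for that match, and it was found in only 8 of the 66 subunit genes with a window, so its absence does not set the isoforms apart. Sequences are from RefSeq (GRCm38.p6), 5′ to 3′ on the gene's strand, from 250 bases before to 30 bases after the start. Capitals mark matches to the NRF1 core GCATGCGC, to the GABPA motif CCGGAAG, to the YY1 motif CCATNTT or to the E-box CACGTG, on either strand.
Cox7a1, chr7:30183921-30184200, plus strand: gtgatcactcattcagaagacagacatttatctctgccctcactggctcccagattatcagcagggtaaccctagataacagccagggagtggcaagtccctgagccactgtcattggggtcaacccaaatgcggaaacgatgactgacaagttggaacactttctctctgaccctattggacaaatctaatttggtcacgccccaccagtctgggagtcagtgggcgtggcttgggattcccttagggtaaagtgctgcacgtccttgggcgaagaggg
Cox6b2, chr7:4753065-4753344, minus strand: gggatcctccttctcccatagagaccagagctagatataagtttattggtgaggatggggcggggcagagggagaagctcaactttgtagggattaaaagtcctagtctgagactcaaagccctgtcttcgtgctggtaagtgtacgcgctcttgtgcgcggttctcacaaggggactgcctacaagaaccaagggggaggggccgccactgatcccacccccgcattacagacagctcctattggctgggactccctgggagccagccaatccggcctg
Cox7b2, chr5:71548176-71548455, minus strand: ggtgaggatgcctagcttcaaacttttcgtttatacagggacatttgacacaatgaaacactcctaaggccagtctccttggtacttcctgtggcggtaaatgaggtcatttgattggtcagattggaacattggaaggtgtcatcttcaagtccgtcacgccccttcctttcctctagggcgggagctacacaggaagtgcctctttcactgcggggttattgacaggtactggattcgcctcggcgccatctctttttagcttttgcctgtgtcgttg
Ndufa6, chr15:82354262-82354541, minus strand: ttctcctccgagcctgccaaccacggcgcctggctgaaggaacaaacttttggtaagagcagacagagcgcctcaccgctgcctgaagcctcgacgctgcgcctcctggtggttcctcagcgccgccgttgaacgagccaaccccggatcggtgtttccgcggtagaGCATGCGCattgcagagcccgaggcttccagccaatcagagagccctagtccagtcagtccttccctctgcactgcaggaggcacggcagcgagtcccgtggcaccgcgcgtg
Ndufa8, chr2:36049309-36049588, minus strand: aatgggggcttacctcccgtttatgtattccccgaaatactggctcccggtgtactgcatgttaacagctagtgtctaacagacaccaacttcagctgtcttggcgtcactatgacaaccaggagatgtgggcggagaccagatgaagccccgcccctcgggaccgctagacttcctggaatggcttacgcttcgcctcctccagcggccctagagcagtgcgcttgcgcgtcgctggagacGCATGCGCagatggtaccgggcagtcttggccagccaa
Uqcr11, chr10:80406792-80407071, minus strand: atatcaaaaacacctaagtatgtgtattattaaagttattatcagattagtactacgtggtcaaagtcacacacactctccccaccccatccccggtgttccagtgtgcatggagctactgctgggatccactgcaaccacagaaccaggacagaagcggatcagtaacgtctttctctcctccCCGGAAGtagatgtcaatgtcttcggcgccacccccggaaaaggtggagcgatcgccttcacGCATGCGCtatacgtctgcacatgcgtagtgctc
The windows of Cox7a1, Cox6b2 and Cox7b2 hold none of these letters, which says nothing on whether those factors act there. The other 3 hold the NRF1 core, and Uqcr11 also the GABPA motif.

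Of the 80 subunit genes, 66 had 71 windows in the table. The NRF1 core was in 8 of the 71 (11.3%), against 2.58% of all 32851 windows of this length, the GABPA motif in 17 (23.9%, against 8.45%), the YY1 motif in 12 (16.9%, against 14.6%) and the E-box in 7 (9.86%, against 6.79%). The longer NRF1 motif, which contains the core, was in 3 (4.23%, against 0.910%). Genes with the NRF1 core did not move as 1 group. Among the 8 of them the Hprt knockout against wild-type ranged from -0.23 (Ndufa8) to 0.57 (Ndufa6), with a median of 0.27, and the 57 tested genes without it had a median of 0.28. In the trap against wild-type the 17 genes with the GABPA motif had a median of 0.20 and the 48 without it 0.098. In the trap against the Hprt knockout these medians were -0.027 and -0.17. The order was the reverse in the other comparisons, 0.21 with the motif and 0.29 without it in the Hprt knockout, and 0.026 and 0.076 in the exon 2 mutant, each against wild-type. No test was made of these differences.

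Within complex I, 9 of 32 genes were higher in the exon 2 mutant and 1 lower (28.1% and 3.13%, beside 32.5% and 23.1% of all tested genes), with a median of 0.06. Ndufv3, an accessory subunit of the NADH-oxidising module, read 12.33 and 12.45 in the exon 2 mutant, against 11.87 and 11.89 in wild-type, 11.95 and 12.00 in the Hprt knockout and 12.02 and 11.99 in the trap. The exon 2 mutant arrays were above all others, by 0.51 ± 0.058 over wild-type (limma adjusted p = 0.00038). None of the other 3 comparisons called Ndufv3. Ndufa6, an accessory subunit of the matrix arm, was higher by 0.34 (adjusted p = 0.0020) and Ndufa7, another matrix arm accessory subunit, by 0.30 (adjusted p = 0.0030). The core subunits Ndufs1, which carries iron-sulfur clusters, and Ndufv1, which binds NADH and the flavin, were higher by 0.22 (adjusted p = 0.016) and 0.18 (adjusted p = 0.022). These last calls were lost under cyclic loess. Ndufa8, an accessory subunit of the intermembrane space side, was lower by 0.22 (adjusted p = 0.0086).

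Both catalytic subunits of complex II, which is also the succinate dehydrogenase of the citrate cycle, were higher in the exon 2 mutant. Of the 4 complex II genes 50% were higher and 0% lower, beside 32.5% and 23.1% of all tested genes. Sdha, the flavoprotein, read 11.12 on both mutant arrays, against 10.87 and 10.89 in wild-type (0.24, adjusted p = 0.0066), and Sdhb, the iron-sulfur subunit, differed by 0.20 (adjusted p = 0.014). In complex III 1 of 8 genes was called, the hinge subunit Uqcrh (-0.18, adjusted p = 0.026). The shares were 0% higher and 12.5% lower, beside 32.5% and 23.1% of all tested genes. The small subunit Uqcr10 read 11.70 and 11.90 in the exon 2 mutant against 11.68 and 11.57 in wild-type on its brightest probe set (0.18, adjusted p = 0.099). The core subunit Uqcrc1 differed by 0.03 (SE 0.058) and the Rieske iron-sulfur protein Uqcrfs1 by -0.05 (SE 0.049), neither past the test. In complex IV the common subunit Cox4i1 was higher by 0.18 (adjusted p = 0.016), while Cox6c (0.13, adjusted p = 0.053) and Cox5a (-0.04, adjusted p = 0.68) did not pass. In a limma fit over the probe sets, a dimmer Cox5a probe set was higher by 0.18 (adjusted p = 0.028), and another differed by -0.0061 without a call. In complex V 6 of 17 were higher (35.3%, beside 32.5% of all tested genes) and 0 lower (beside 23.1%). Atp5g2, a gene of the c ring, read 12.28 and 12.31 against 11.99 and 11.95 in wild-type (0.33, adjusted p = 0.0016), and Atp5c1, the gamma subunit of the rotor stalk, was higher by 0.31 (adjusted p = 0.0040). Atp5e, the epsilon subunit, was higher by 0.16 (adjusted p = 0.046), while the catalytic subunits Atp5a1 (0.12, adjusted p = 0.11) and Atp5b (0.01, adjusted p = 0.86) did not pass. The dimmer probe sets of Atp5a1 were called higher in the fit over the probe sets, by 0.20 (adjusted p = 0.018) and 0.32 (adjusted p = 0.025). Feeder markers were lower in the exon 2 mutant for 25 of 27, with a median of -0.50. Calls of 7 of the 27 genes, Cox7a1, Cox7b2, Ndufv3, Ndufa6, Ndufa7, Atp5g2 and Atp5o, held under each alternative setting with the same threshold, and the higher calls fell from 22 to 11 without wild-type replicate 1, to 12 without wild-type replicate 2 and to 11 without exon 2 mutant replicate 2.

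The probe sets of Uqcr10 differed in size of response but not in direction; they were singled out after their values were seen. The brightest read 11.68 and 11.57 in wild-type, 12.12 and 12.08 in the Hprt knockout, and 11.87 and 11.79 in the trap, with the exon 2 mutant between wild-type and the Hprt knockout. A dimmer one read 7.61 and 7.78 in wild-type, 8.98 and 9.01 in the exon 2 mutant, 9.68 and 9.66 in the Hprt knockout, and 8.35 and 8.36 in the trap. Its 4 groups did not overlap, with wild-type lowest. In a fit over the probe sets it was higher by 1.30 in the exon 2 mutant (limma adjusted p = 2.7e-05) and by 1.97 in the Hprt knockout than in wild-type, and lower by 1.31 in the trap than in the Hprt knockout. The other dim probe set, with a suffix for possible cross-hybridisation, gave 0.95, 1.71 and -1.13, against 0.18, 0.47 and -0.27 for the brightest. The mean of the 3 probe sets gave 0.81, 1.38 and -0.90. Which of them reads the gene's main transcript was not tested.

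In the trap against the Hprt knockout, more subunit genes were lower than higher in every complex, although under cyclic loess the lower and higher calls over the chain were equal, 15 and 15. Counts of lower and higher genes were 16 and 3 of 32 in complex I, 2 and 0 of 4 in complex II, 4 and 1 of 8 in complex III, 9 and 1 of 18 in complex IV and 7 and 1 of 17 in complex V. The lower shares, 41.2% in complex V and 50% in the others, stood beside 41.8% of all tested genes, and the higher shares, 0.00% to 12.5%, beside 26.6%. Lower calls fell from 38 to 22 without trap replicate 2 and to 25 without either Hprt knockout replicate. Feeder markers were higher for 27 of 27, with a median of 3.90. The NADH-binding subunit Ndufv1 read 12.04 and 12.05 in the Hprt knockout and 11.56 and 11.48 in the trap. That difference of -0.52 ± 0.051 (adjusted p = 8.9e-05) was seen with each of its 3 probe sets, -0.39 to -0.53. The wild-type arrays, 11.59 and 11.56, lay close to the trap arrays, and that difference was not called. The accessory subunit Ndufb6 was lower by 0.44 (adjusted p = 0.00019) and Ndufs1 by 0.28 (adjusted p = 0.0040).

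All 3 core and Rieske genes of complex III were lower in the trap than in the Hprt knockout, beside 41.8% of all tested genes. All 3 were also higher in the Hprt knockout than in wild-type, by 0.27 to 0.43. Against wild-type the trap differed by -0.18 for Uqcrc1, which was called. Uqcrfs1 (0.09) and Uqcrc2 (-0.04) were not called there. Uqcrc1 read 12.44 and 12.41 in the Hprt knockout and 11.91 and 11.99 in the trap (-0.47 ± 0.058, adjusted p = 0.00027), Uqcrfs1 differed by -0.34 (adjusted p = 0.00099) and Uqcrc2 by -0.32. The trap arrays of Uqcrc1 were below all other arrays. The small subunit Uqcrh went the other way, by 0.16 (adjusted p = 0.030). In complex V the catalytic subunits Atp5a1 and Atp5b were lower by 0.36 (adjusted p = 0.0013) and 0.31 (adjusted p = 0.00099) and Atp5e by 0.16 (adjusted p = 0.034), while Atp5h, of the peripheral stalk, was higher by 0.20 (adjusted p = 0.010). In complex IV Cox6c was lower by 0.17 (adjusted p = 0.016), Ndufa4 by 0.14 (adjusted p = 0.046), and Cox6b1 higher by 0.14 (adjusted p = 0.032). Cox4i1 (-0.04, adjusted p = 0.50) and Cox5a (-0.11, adjusted p = 0.18) did not pass.

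A few complex I genes were higher in the trap than in the Hprt knockout. Ndufa8 read 11.11 and 11.15 in the Hprt knockout and 11.47 and 11.44 in the trap, 0.32 ± 0.050 higher (adjusted p = 0.0011). The Hprt knockout and exon 2 mutant arrays, 11.13 and 11.14 in the latter, were below those of the wild-type and the trap, the reverse of the Cox7a1 order. Ndufa3, an accessory subunit of the membrane arm, was higher by 0.30 (adjusted p = 0.0024), as was another bright probe set of it, while a dim one differed by -0.48. Ndufs8, a core iron-sulfur subunit, was higher by 0.19 (adjusted p = 0.043). In complex II Sdha differed by -0.22 (adjusted p = 0.0072), but by 0.031 as the mean of its 4 probe sets, of which 2 are below the filter, and Sdhb did not pass (0.08, adjusted p = 0.20). Sdhb was called higher under cyclic loess, 0.22. Calls of 16 of the 44 genes held under each alternative setting with the same threshold, among them Cox7b2, Cox7a1, Cox6b2, Ndufv1, Uqcrc1, Ndufb6, Uqcrfs1, Atp5a1, Atp5b and Ndufa8.

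**Figure D3:**
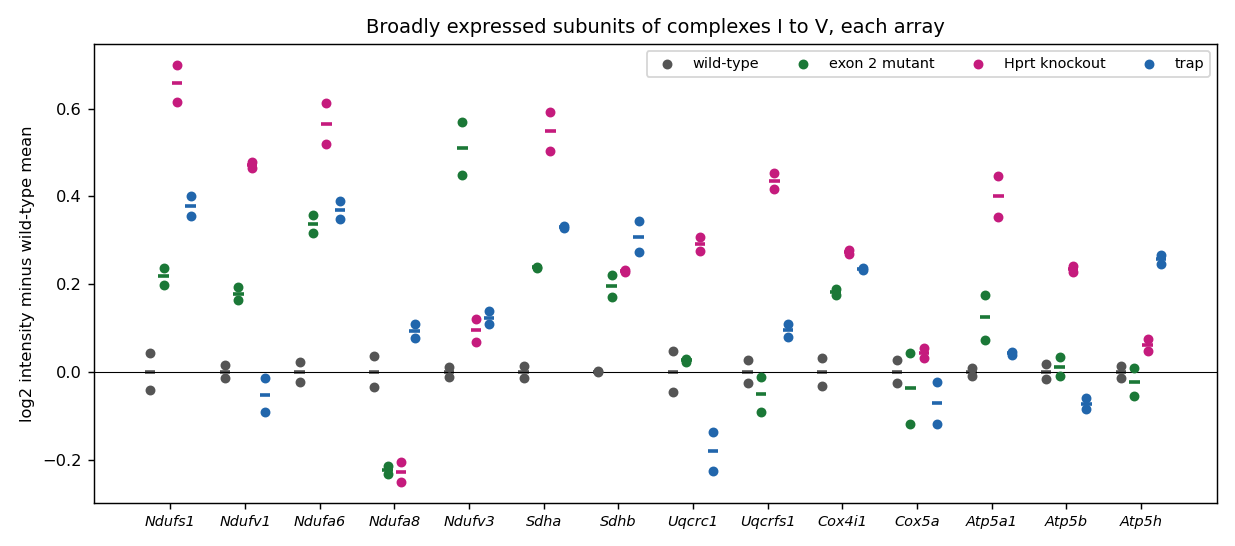
Log2 intensity of 14 broadly expressed subunit genes on each array, minus the wild-type mean of that gene, with group means as bars. Most genes are highest in the Hprt knockout; Ndufv3 is highest in the exon 2 mutant, Atp5h in the trap, and Ndufa8 is low in the exon 2 mutant and the Hprt knockout.

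The Hprt knockout against wild-type compares both control groups, and 60 of 79 subunit genes differed (75.9%, beside 71.5% of all tested genes). Counts of higher and lower genes were 24 and 2 of 32 in complex I, 4 and 0 of 4 in complex II, 6 and 0 of 8 in complex III, 11 and 1 of 18 in complex IV and 12 and 0 of 17 in complex V, beside 46.4% of all tested genes higher and 25.1% lower. Complex medians ran from 0.24 in complex V to 0.33 in complex II, against 0.16 for all tested genes. The feeder markers had a median log2 difference of -4.57 in the same comparison, and the part of this in the counts was not tested. Ndufs1 read 10.50 and 10.58 in wild-type and 11.24 and 11.16 in the Hprt knockout, 0.66 ± 0.058 higher (limma adjusted p = 4.3e-05), with the exon 2 mutant (10.74 and 10.78) and the trap (10.90 and 10.94) between them. Ndufa6 was higher by 0.57 (adjusted p = 7.3e-05), Sdha by 0.55 (adjusted p = 5.9e-05) and Ndufv1 by 0.47 (adjusted p = 0.00012). These 4 kept their calls under cyclic loess, at 0.43, 0.36, 0.33 and 0.27.

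Several subunits of complexes II to V were also higher, by smaller amounts. Uqcrfs1 was higher by 0.43 (adjusted p = 0.00024), Atp5a1 by 0.40 (adjusted p = 0.00062), Atp5e by 0.39 (adjusted p = 0.00046), Ndufa4 by 0.35 (adjusted p = 0.00062), Uqcrc1 and Cox6c by 0.29 (adjusted p = 0.0028 and 0.0011), Cox4i1 by 0.27 (adjusted p = 0.0016), and Atp5b and Sdhb by 0.23 (adjusted p = 0.0034 and 0.0047). Uqcrc1 and Sdhb lost their calls under cyclic loess, at 0.11 and 0.026. Cox5a read 13.63 and 13.58 in wild-type and 13.66 and 13.64 in the Hprt knockout and did not pass (0.04, adjusted p = 0.61). A dimmer probe set of Cox5a was higher by 0.20 in a limma fit over the probe sets (adjusted p = 0.015), and another differed by 0.033 without a call. Ndufa8 (-0.23, adjusted p = 0.0053) and Ndufa3 (-0.20, adjusted p = 0.014) were lower, Ndufa3 only by 0.034 and without a call as the mean of its probe sets. Calls of 28 of the 60 genes held under each alternative setting with the same threshold.

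The trap against wild-type combines the Hprt genotype, the trap and the line. All 4 complex II genes were higher, Sdha by 0.33 (adjusted p = 0.0025) and Sdhb by 0.31 (adjusted p = 0.0030), with a complex median of 0.27. Higher and lower counts were 10 and 0 of 32 in complex I, 2 and 1 of 8 in complex III, 7 and 2 of 18 in complex IV and 7 and 0 of 17 in complex V, beside 26.5% of all tested genes higher and 14.6% lower. Higher calls fell from 30 to 14 without trap replicate 1, to 17 without wild-type replicate 1 and to 19 without wild-type replicate 2. Ndufs1 was higher by 0.38 (adjusted p = 0.0023), Ndufa6 by 0.37 (adjusted p = 0.0021), Ndufb11, an accessory membrane arm subunit, by 0.34 (adjusted p = 0.0039), Ndufs8 by 0.33 (adjusted p = 0.0076) and Uqcr11, a small complex III subunit, by 0.34 (adjusted p = 0.0046). In complexes IV and V, Cox4i1 and Atp5e were higher by 0.23 (adjusted p = 0.0081 and 0.013) and Ndufa4 by 0.21 (adjusted p = 0.016). Uqcrc1 was lower by 0.18 (adjusted p = 0.042), a call lost with any single array left out. Ndufv1, Uqcrfs1, Cox5a, Cox6c, Atp5a1 and Atp5b did not pass, at -0.07 to 0.12. Feeder markers were lower for 15 and higher for 4 of 27.

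The effects of both Gtf2i mutations against their controls were compared in the same fit, as the exon 2 mutant against wild-type minus the trap against the Hprt knockout. This difference was called above 0 at 37 of 79 subunit genes (46.8%) and below 0 at 6 (7.59%), against 69.7% of all tested genes called, 42.6% above and 27.0% below. Called or not, it was positive at 65 subunit genes and negative at 14. Its median was 0.21 over the subunit genes and already 0.16 over all tested genes. The share of all tested genes above 0 was not counted. On the brightest probe sets Cox7a1 had the largest, 1.79 (adjusted p = 2.7e-06), being higher in the exon 2 mutant and lower in the trap. Uqcr10 stood at 0.45 on its brightest probe set and at 2.61 and 2.08 on its dimmer ones. Cox7b2 was lower in both mutants, by 0.95 log2 units more in the trap (adjusted p = 2.7e-05). The controls of both effects differ in their feeder signal, and the part of this was not tested. Cyclic loess gave 19 called above and 12 called below.

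Other mitochondrial gene lists were read in the same way, and no test was made between lists. Medians here are relative to all tested genes, and counts and medians under cyclic loess follow those from the deposited values. In the Hprt knockout against wild-type, where 46.4% of all tested genes were higher and 25.1% lower (34.1% and 34.2% under cyclic loess), 68 of 76 mitochondrial ribosomal protein genes were higher and 0 lower (54 and 4), with a relative median of 0.34 (0.28). They were led by Mrpl38 (1.04, adjusted p = 4.2e-06) and Mrps27 (0.92). Genes of mitochondrial DNA expression were higher for 20 and lower for 1 of 23 (18 and 3), at 0.57 (0.49), among them Tfb1m, a mitochondrial ribosomal RNA methyltransferase (1.31), and Mtif2, a mitochondrial translation initiation factor (1.22). Assembly factors of the chain were higher for 31 and lower for 4 of 46 (28 and 13), at 0.34 (0.25). Among them Nubpl, which delivers iron-sulfur clusters to complex I, was higher by 0.98 and Ndufaf7, a complex I assembly factor, by 1.14. Electron carrier and ubiquinone genes were higher for 15 and lower for 2 of 20 (12 and 3), at 0.35 (0.26). Their widest member, the sulfide oxidising enzyme Sqor, fell by 3.31, beside the fall of all 27 feeder markers. Import and cristae genes were higher for 24 and lower for 1 of 31 (15 and 5), at 0.19 (0.12), including Immt, the cristae organiser mitofilin (1.03). Citrate cycle and pyruvate entry genes were higher for 17 and lower for 2 of 22 (11 and 4), at 0.23 (0.15), where Pdk4, a kinase that shuts pyruvate dehydrogenase, fell by 2.12 and Ogdh, of the citrate cycle, rose by 0.96. Glycolysis genes were higher for 7 and lower for 10 of 21 (5 and 11), at -0.22 (-0.26).

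In the trap against the Hprt knockout 41.8% of all tested genes were lower and 26.6% higher (30.7% and 33.9% under cyclic loess). Ribosomal proteins were lower for 61 and higher for 2 of 76 (42 and 6), with a relative median of -0.24 (-0.21). Mitochondrial DNA expression had 20 lower and 1 higher of 23 (17 and 1), at -0.33 (-0.30), and assembly factors 28 and 6 of 46 (22 and 10), at -0.18 (-0.16), while the subunits lay at 0.013 (-0.0064). Import and cristae genes had 23 lower and 2 higher (13 and 2), electron carrier and ubiquinone genes 14 and 2 of 20 (11 and 4), and citrate cycle genes 14 and 2 of 22 (11 and 3). Glycolysis genes had 8 lower and 9 higher of 21 (6 and 10). This comparison shares the Hprt knockout arrays with the one before.

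In the exon 2 mutant, where 32.5% of all tested genes were higher and 23.1% lower (26.6% and 29.1% under cyclic loess), glycolysis had the highest relative median of these lists. Of 21 glycolysis genes 18 were higher and 2 lower (17 and 3), at 0.56 (0.54), led by the lactate dehydrogenase subunit Ldhb (1.64), the aldolase Aldoc (1.60) and the enolase Eno2 (1.18), beside 0.047 for the respiratory subunits. Genes of mitochondrial DNA expression were higher for 14 and lower for 1 of 23 (12 and 2), at 0.28 (0.22). Electron carrier and ubiquinone genes were higher for 12 and lower for 3 of 20 (11 and 3), at 0.30 (0.25), with the testis cytochrome c gene Cyct at 0.82 and the ubiquinone-binding protein gene Coq10b at -1.67. The lean of the other lists toward higher calls was smaller or gone under cyclic loess: ribosomal proteins had 30 higher and 9 lower of 76 (20 and 20), assembly factors 23 and 5 of 46 (16 and 7), citrate cycle genes 9 and 3 of 22 (5 and 5), and import and cristae genes 9 and 2 of 31 (6 and 6).

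The trap against wild-type, with 26.5% of all tested genes higher and 14.6% lower (22% and 18.6% under cyclic loess), had 33 higher and 2 lower of 76 ribosomal proteins (24 and 8) and 17 and 4 of 46 assembly factors (12 and 7). Mitochondrial DNA expression had 12 and 0 of 23 (9 and 0), and import and cristae genes 9 and 3 of 31 (6 and 4). Electron carriers had 7 and 2 of 20 (5 and 5), citrate cycle genes 5 and 2 of 22 (2 and 2) and glycolysis genes 5 and 6 of 21 (5 and 9).

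Regulators of respiratory genes moved in both directions. In the Hprt knockout against wild-type 13 of 23 were higher and 5 lower (9 and 8 under cyclic loess), or 56.5% and 21.7% beside 46.4% and 25.1% of all tested genes. Mycn and the mitochondrial deacetylase Sirt3 were higher by 1.55 and 1.59 (adjusted p = 9.1e-07 and 5.4e-07), and Myc fell by 1.61 (adjusted p = 1.7e-06). In the trap against the Hprt knockout 7 were higher and 11 lower (8 and 8), or 30.4% and 47.8% beside 26.6% and 41.8% of all tested genes. Sirt3 differed there by -1.49, the kinase subunit Prkaa2 by -1.35 and Myc by 1.35. The exon 2 mutant had 11 higher and 5 lower (9 and 8), or 47.8% and 21.7% beside 32.5% and 23.1%. Mycn differed there by 1.36, Sirt3 by 1.16 and the hypoxia factor Epas1 by -1.03. The trap against wild-type had 5 higher and 3 lower (4 and 4), or 21.7% and 13.0% beside 26.5% and 14.6%. The widest calls there were the oxidative stress factor Nfe2l2 at 0.78, Esrrb, a pluripotency and metabolic receptor, at 0.62 and the coactivator Ppargc1b at 0.45.

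**Figure D4:**
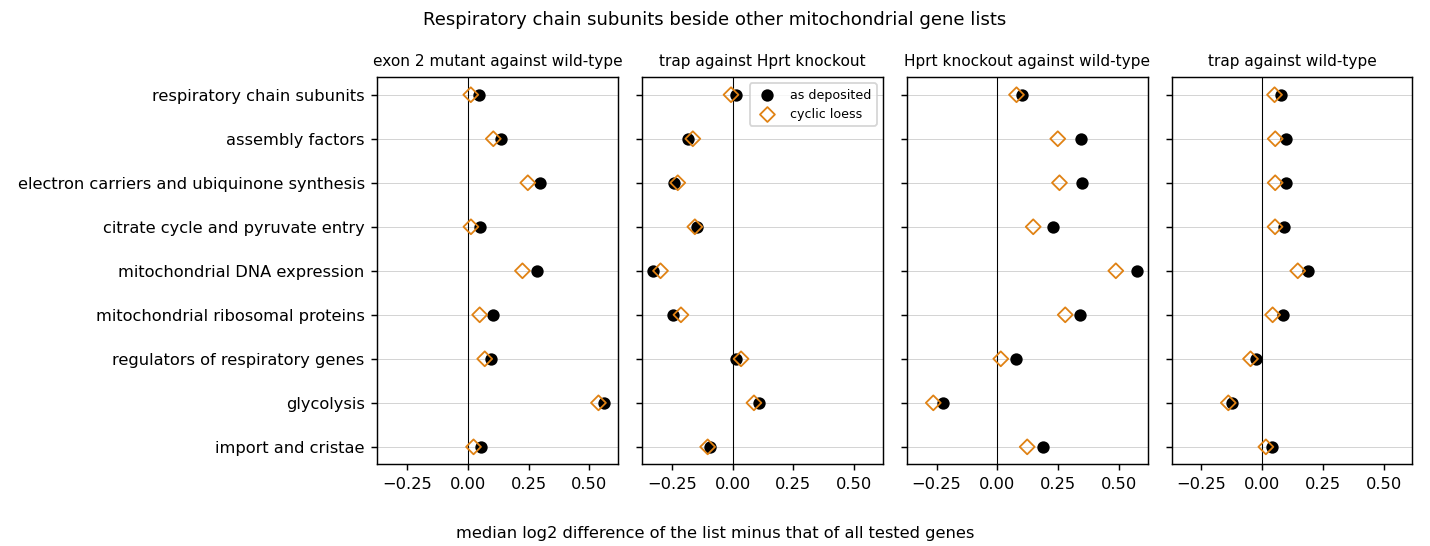
Median log2 difference of each gene list minus the median of all tested genes, as deposited (filled) and after cyclic loess (open), by comparison. The subunits lie between -0.0064 and 0.10, while mitochondrial DNA expression reaches 0.57 in the Hprt knockout against wild-type and glycolysis 0.56 in the exon 2 mutant.

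Several probe sets could be compared for 46 subunit genes. All those of a gene had the same sign for 33 genes in the exon 2 mutant, 39 in the trap against the Hprt knockout, 40 in the Hprt knockout against wild-type and 33 in the trap against wild-type. Probe sets were called in opposite directions for Atp5j2 in the exon 2 mutant, for Ndufa3 and Ndufb8 in the trap against the Hprt knockout, and for Ndufb8 in the Hprt knockout against wild-type. The brightest probe set carries a suffix that marks possible cross-hybridisation for 17 of the 80 genes, Ndufv1, Ndufa3, Ndufa7 and Atp5c1 among them. Cox7a1, Cox6b2, Cox7b2, Ndufs1, Ndufa6, Ndufa8, Ndufv3, Uqcrc1 and Uqcr11 have a single probe set each and so have no second reading on the array.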

How the data were processed

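Total RNA of 8 mouse embryonic stem cell samples was hybridised to Affymetrix expression arrays. Per the submitters' processing notes, the authors made the deposited log2 intensities with RMA (background correction, quantile normalization and probe summary), version unstated. Quantile normalization hides a change of total RNA, and the RMA steps together can compress folds. Column medians were 5.96 to 6.02, and 0 value columns were left unmatched.

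Probe sets were named by the array annotation, and 34945 of 45037 had a single symbol. A gene was tested if its probe set was above the array's 40th percentile (on average log2 5.35) on at least 2 arrays. limma 3.58.1 in R 4.3.3 fitted 4 group means over all 8 arrays, with empirical Bayes moderation (4 residual degrees of freedom, 6.86 after moderation) and Benjamini-Hochberg adjustment over 13819 genes. The spread was pooled because permuting 2 against 2 arrays exactly gives no p below 0.333. The script was tested on simulated data. No count or depth exists for arrays, and their number limits the precision.

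Named genes were, per comparison, up to 6 called rises and 6 called falls without overlap between arrays, a fixed list of subunits and isoforms, and up to 3 genes for each related list. The members and lists were chosen with earlier results of these data known. Alternatives were another scaling, other filters, probe set means, fits on the compared arrays, the replicate number as a block, another moderation, a 1.5-fold minimum and omission of each array. Replicate numbers did not pair the samples (correlations of deviations -0.28 to 0.17). Promoters came from RefSeq GRCm38.p6, with 66 of 80 genes matched.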

Additional observations from a re-analysis of the deposited data

Results flagged for a closer look

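The effects of both Gtf2i mutations, each against its control, differed by a test of the difference (exon 2 mutant against wild-type minus trap against Hprt knockout) at 37 subunit genes above 0 and 6 below 0 (46.8% and 7.59%), beside 42.6% and 27.0% of all tested genes, whose median difference was 0.16. Among the genes named, the difference was called above 0 for Cox7a1 (1.79), Cox7b2 (0.95), Cox6b2 (0.83), Ndufv1 (0.70), Ndufa6 (0.53), Ndufs1 (0.50), Uqcrc1 (0.50), Atp5c1 (0.49), Ndufv3 (0.48), Atp5a1 (0.48), Ndufa7 (0.46) and Sdha (0.46), all in log2 units. Smaller called differences above 0 were those of Ndufb6 (0.40), Atp5g2 (0.39), Atp5b (0.32), Atp5e (0.32), Cox6c (0.30), Uqcrfs1 (0.29), Uqcr11 (0.23) and Cox4i1 (0.22). The difference was called below 0 for Ndufa8 (-0.55), Uqcrh (-0.34), Ndufa3 (-0.34), Atp5h (-0.22) and Cox6b1 (-0.22). The limma adjusted p ran from 2.7e-06 for Cox7a1 to 0.048 for Uqcr11. In all, 15 genes were called in opposite directions in the mutants, 13 of them higher in the exon 2 mutant and lower in the trap, and Ndufa8 and Uqcrh the other way. This was 19.0% of the subunit genes, beside 37.4% of all tested genes. The feeder markers also differed between both effects, all 27 below 0, and their part was not tested.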

How the results depend on the processing

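Counts below are subunit genes called higher and lower, and medians are relative to all tested genes. Cyclic loess gave 9 and 12 in the exon 2 mutant against wild-type, 15 and 15 in the trap against the Hprt knockout, 27 and 5 in the Hprt knockout against wild-type and 19 and 12 for the difference between effects. The medians of the chain became 0.012, 0.079 and 0.051 in the exon 2 mutant, the Hprt knockout and the trap against wild-type. Complexes I and II became -0.000445 and 0.10 in the exon 2 mutant, complexes I, II and III 0.066, 0.10 and 0.087 in the Hprt knockout, and complex II 0.19 in the trap, all against wild-type. Without a filter the chain stood at 0.069, -0.0092, 0.15 and 0.10 in the 4 comparisons in the order of the report, complexes I, II, III and V of the Hprt knockout at 0.15, 0.22, 0.17 and 0.13, and the higher calls of the trap against the Hprt knockout at 3. At the 60th percentile filter the chain stood at 0.014 and 0.066 in the exon 2 mutant and the Hprt knockout, complexes I, II and III of the exon 2 mutant at 0.0015, 0.11 and -0.039, and complexes I, II, III and V of the Hprt knockout at 0.054, 0.12, 0.075 and 0.035; 3 were lower in the exon 2 mutant. With the mean of all probe sets, complex II stood at 0.078, 0.087, 0.091 and 0.15 in the 4 comparisons, complex III at -0.12 in the trap against the Hprt knockout and complex V at 0.13 in the Hprt knockout; 1 was lower in the Hprt knockout, 3 for the difference between effects, and Sdha turned to 0.031 in the trap against the Hprt knockout, where 2 of its probe sets are dim. A fit on the compared arrays alone, with fewer samples, gave 13 higher in the exon 2 mutant, and trended, robust moderation gave 36. At least 1.5-fold held for 1 and 0, 0 and 3, 3 and 0, and 0 and 1 genes in the 4 comparisons, and for 4 and 0 of the difference between effects.

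With each array left out in turn, where the lone array of a group is assumed to vary like the others, counts ranged as follows. In the exon 2 mutant they were 11 to 20 higher and 2 to 5 lower, and in the trap against the Hprt knockout 2 to 6 and 22 to 38. Lower calls were 1 to 3 in the Hprt knockout against wild-type, and the trap against wild-type had 14 to 33 higher and 1 to 2 lower. The difference between effects had 3 to 5 lower. The lowest counts of lower calls came without wild-type replicate 2 in the exon 2 mutant, and without wild-type replicate 1 (also Hprt knockout replicate 1) in the Hprt knockout. Medians ranged from 0.12 to 0.17, -0.027 to 0.034 and 0.045 to 0.11 for complexes II, III and V in the exon 2 mutant. They ranged from -0.0094 to 0.013 for the chain in the trap against the Hprt knockout, and from 0.14 to 0.19 and 0.20 to 0.24 for complex II in the Hprt knockout and the trap against wild-type. With the replicate number as a block, the exon 2 mutant had 16 higher and 6 lower, the trap against the Hprt knockout 3 and 31, the Hprt knockout 55 and 3, and the trap against wild-type 26 and 2; the arrays shared only a number. Where neither value passed the test, 14 named genes changed sign 39 times, at 0.19 or less. Cyclic loess ended 23 calls of named genes. The causes of these changes were not tested. Dim signals, such as Cox4i2 and Cox8b near the filter level, limit what can be seen.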
